A study of Homo sapiens with 12 samples.

Results

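FOXO1, FOXO3 and 8 genes linked to them through PI3K signalling were followed across the 2 cell lines and 3 antibodies. The 8 genes were PIK3IP1, IRS2, CCNG2, SESN1, SESN3, KLHL24, YPEL3 and YPEL5. These 10 genes are the rows of the 58884-gene count table that carry their Ensembl identifiers, and all 10 were found. They were chosen by name as genes known to rise when PI3K signalling falls, and also by measured values, since KLHL24 had moved in opposite directions in the 2 lines. Differences from isotype, and the contrast of those differences between the lines, are therefore given as a description. Where the number of the 10 genes called in these comparisons is printed, it describes the values used for the choice and nothing is read from it. The difference between the lines under isotype and the difference between the 2 anti-CD20 antibodies were not themselves used for that choice and were tested. The isotype libraries of both lines also enter the contrasts that were used. The test between the lines is therefore not fully independent of the choice.

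U2932 and TMD8 are established lines of diffuse large B-cell lymphoma (DLBCL) of the activated B-cell subtype, labelled as wild type. Each line was grown as 2 separate cultures, and each culture received 20 µg/mL of rituximab (R), ofatumumab (OF) or a human IgG1 isotype antibody, with RNA taken at 4 h. R and OF are monoclonal antibodies that bind CD20 on B cells at different epitopes, and the isotype antibody is the control. This gave 6 conditions with 2 libraries each, and 12 libraries of 15440226 to 27110612 counts. Replicates are cultures of 1 line, so their spread is that between cultures.

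PI3K makes a membrane lipid that recruits and activates the kinase AKT, and AKT phosphorylates FOXO proteins, which then leave the nucleus. When the signal falls, FOXO proteins return to the nucleus and switch on genes of quiescence, catabolism and stress resistance, among them genes that feed back on the PI3K pathway itself. In B cells the pathway is fed by the B-cell receptor, and FOXO1 is needed for B-cell development and for the germinal centre.

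The 4 B-cell markers MS4A1, CD79A, CD79B and PAX5 were detected in every library. Their summed level was 1710 to 2800 CPM (library-scaled counts, normalised by the trimmed mean of M-values) in U2932 and 2080 to 3250 CPM in TMD8. IRF4, a factor of activated B cells, lay at 361 to 389 CPM in U2932 and 747 to 1220 CPM in TMD8. T-cell markers summed to at most 0.131 CPM, myeloid markers to at most 1.01 CPM and fibroblast markers to at most 5.35 CPM. OF replicate 2 and isotype replicate 2 of TMD8 stood apart from the other TMD8 libraries. Ribosomal protein genes took 7.16% and 6.50% of their counts against 10.0% to 10.8%, and mitochondrial genes 3.73% and 3.99% against 5.70% to 6.23%.

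FOXO proteins bind DNA at a core that reads GTAAACA. The promoter windows of RefSeq on GRCh38.p14, which run from 250 bases before to 50 bases after a start site, were searched for this core and for the shorter run AAACAA, on both strands (reverse letters TGTTTAC and TTGTTT). The 10 genes have 16 such windows. The GTAAACA core was in 2 of the 16 windows and in 3.42% of all 35116 windows. The AAACAA run was in 8 of the 16 windows, which belong to 7 of the 10 genes, and in 17.9% of all windows or 21.1% of all genes. In YPEL3 both runs overlap. FOXO1 and YPEL5 had neither run in these windows. The 30 bases around each match are shown to place the letters within each promoter, 5′ to 3′ on the strand of the gene, with the match in capitals. A match describes the sequence and is not a measured binding site.
YPEL3, chr16:30096195-30096224, minus strand, first base of the match at position 1 of the transcript: ctgggctcggtGTAAACAagtccaggcgcc
PIK3IP1, chr22:31292454-31292483, minus strand, first base of the match at position 17: taaagagaggcTGTTTACcagaacagcata
KLHL24, chr3:183635394-183635423, plus strand, 217 bases before the start: tgtctctgcttaAAACAAggtgtttttgag
CCNG2, chr4:77157206-77157235, plus strand, first base of the match at position 12: aactcttaacaaAAACAAggggctcgggga
FOXO3, chr6:108560673-108560702, plus strand, 232 bases before a start: cgagcgaaacatAAACAAacgcacgcacac
FOXO3, chr6:108588689-108588718, plus strand, 72 bases before another start: tcgctgactgggAAACAAtgggctgggcct
SESN1, chr6:109009566-109009595, minus strand, 31 bases before a start: gggccgcgcggcTTGTTTgtcggcgccgcc
SESN3, chr11:95232696-95232725, minus strand, 240 bases before the start: accagggttgTTGTTTttttttaattaaaa
IRS2, chr13:109786607-109786636, minus strand, 41 bases before the start: ccgagtcacatgTTGTTTtgctcttcttag

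The first question was how the 10 genes stood in the 2 lines before any anti-CD20 antibody. Under isotype all 10 were higher in U2932 than in TMD8 at an adjusted p under 0.10 and at least 1.5-fold (edgeR's quasi-likelihood test, Benjamini-Hochberg adjustment over 16187 genes). Of all genes tested, 28.1% were called higher in U2932 by the same rule. Without the 2 TMD8 libraries that stood apart, only isotype replicate 1 of TMD8 remains in this comparison. The log2 differences of the 10 genes then ran from 0.85 (YPEL3) to 5.92 (PIK3IP1). The median log2 difference of the 10 genes was 1.93, and that of all genes was -0.02. The smallest difference was that of FOXO1 and the largest that of PIK3IP1.

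**Figure D1:**
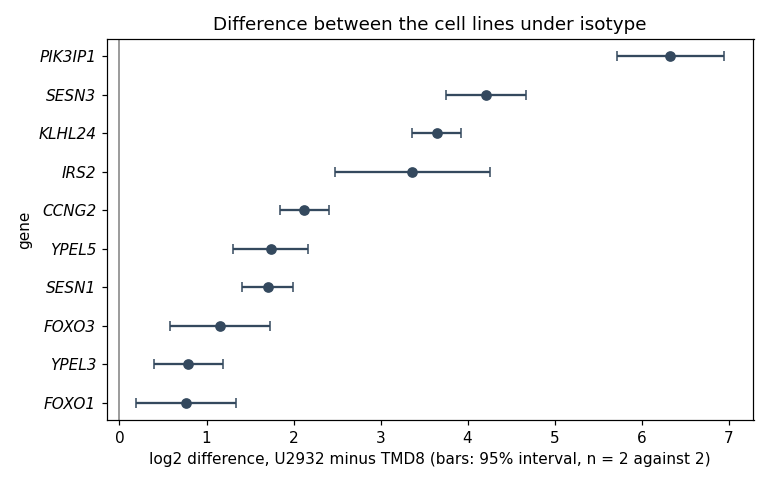
Log2 difference in level between U2932 and TMD8 under the isotype antibody for each of the 10 genes, as points with 95% intervals (n = 2 libraries against 2). All 10 points lie above 0, from 0.77 for FOXO1 to 6.33 for PIK3IP1.

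PIK3IP1 (chromosome 22, 31281593 to 31292534 on GRCh38, minus strand) encodes a membrane protein that binds the catalytic subunit of PI3K and restrains it. Its level under isotype was 51.6 and 45.8 CPM in U2932 and 0.80 and 0.46 CPM in TMD8, where it rested on 14 and 13 counts. The log2 difference was 6.33 (SE 0.28), or 80.5-fold, with an adjusted p of 1.0e-08. SESN3 (chromosome 11, 95165513 to 95232541, minus strand), a sestrin that restrains the growth complex mTORC1, stood at 33.0 and 41.1 CPM in U2932 and 2.00 and 1.99 CPM in TMD8. SESN3 differed by a log2 of 4.21 (SE 0.21), or 18.5-fold, with an adjusted p of 2.3e-08. KLHL24 (chromosome 3, 183635568 to 183684477, plus strand), a substrate adaptor of a Cullin-3 ubiquitin ligase, stood at 107.6 and 119.7 CPM in U2932 and 8.62 and 9.51 CPM in TMD8. KLHL24 differed by a log2 of 3.64 (SE 0.13), or 12.5-fold, with an adjusted p of 2.8e-09. No library of one line reached the range of the other for these 3 genes.

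IRS2 (chromosome 13, 109752698 to 109786568, minus strand), an adaptor that couples the insulin and IGF-1 receptors to PI3K, was at 11.7 and 9.63 CPM under isotype in U2932 and at 0.46 and 1.46 CPM in TMD8. IRS2 differed by a log2 of 3.37 (SE 0.40), or 10.3-fold, with an adjusted p of 2.4e-05. It was 2.87 without TMD8 isotype replicate 1 and 4.52 without TMD8 isotype replicate 2. CCNG2 (chromosome 4, 77157151 to 77433388, plus strand), an atypical cyclin linked to exit from the cell cycle, was at 34.0 and 33.9 CPM in U2932 and at 7.36 and 8.20 CPM in TMD8. This was a log2 difference of 2.12 (SE 0.13), or 4.35-fold, with an adjusted p of 9.6e-08. YPEL5 (chromosome 2, 30146941 to 30160533, plus strand), a subunit of the CTLH ubiquitin ligase, was 3.34-fold higher in U2932 (log2 1.74, SE 0.20, adjusted p 1.5e-05). SESN1 (chromosome 6, 108986437 to 109094819, minus strand), a sestrin that is also a p53 target, was 3.26-fold higher (log2 1.70, SE 0.13, adjusted p 7.1e-07). YPEL3 (chromosome 16, 30092314 to 30096915, minus strand), a small zinc-binding protein associated with growth arrest, was 1.73-fold higher (log2 0.79, SE 0.18, adjusted p 0.0028).

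Of the FOXO factors, FOXO1 had the smallest difference of the 10 genes and FOXO3 the third smallest, above that of YPEL3. FOXO3 (chromosome 6, 108559835 to 108684774, plus strand) was at 22.4 and 21.0 CPM under isotype in U2932 and at 7.65 and 11.6 CPM in TMD8. The log2 difference was 1.16 (SE 0.26), or 2.23-fold, with an adjusted p of 0.0025. FOXO1 (chromosome 13, 40469953 to 40666597, minus strand) was at 45.8 and 42.1 CPM in U2932 and at 18.9 and 32.5 CPM in TMD8. The log2 difference was 0.77 (SE 0.26), or 1.70-fold, with an adjusted p of 0.025. The call of FOXO1 rested on single libraries. Without TMD8 isotype replicate 1 its log2 difference was 0.44 and its adjusted p 0.12, and without U2932 isotype replicate 1 it was 0.71 and its adjusted p 0.10, above the limit.

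Levels can be ordered between genes only per length of exon, so CPM per kilobase were used for the order (mean ± SD, n = 2 under isotype). In U2932 YPEL5 was highest at 34.4 ± 0.40, followed by KLHL24 at 13.1 ± 0.99 and PIK3IP1 at 12.8 ± 1.08, whose libraries overlapped. FOXO1 came next at 7.05 ± 0.43, and CCNG2, SESN1, YPEL3 and SESN3 lay close together at 4.55 to 3.50. FOXO3 at 2.81 ± 0.12 and IRS2 at 1.31 ± 0.18 were lowest. In TMD8 YPEL5 was again highest at 10.3 ± 3.13, followed by FOXO1 at 4.12 ± 1.54 and YPEL3 at 2.36 ± 0.14. SESN1, FOXO3, KLHL24 and CCNG2 followed at 1.34 to 1.04, each overlapping the next. SESN3, PIK3IP1 and IRS2 were lowest at 0.19, 0.17 and 0.12, and neighbours among these 3 overlapped. KLHL24 thus ranked second of the 10 in U2932 and sixth in TMD8, on this scale of level per kilobase.

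Other lists around the FOXO and PI3K pathway were split between the directions. Of all 16187 genes tested, 28.1% were called higher in U2932 and 4528 genes were called lower. Of 41 further FOXO target genes, 32 were tested under isotype, and 10 were called higher in U2932 and 12 lower, with a median log2 difference of -0.22. KLF2, a zinc-finger factor of lymphocyte quiescence, had 2 and 0 counts under isotype in U2932 against 549 and 906 counts in TMD8 (31.3 and 32.1 CPM), and was called lower in U2932. S1PR1, which guides lymphocyte exit from tissue, was lower in U2932 by a log2 difference of -2.86 (adjusted p 2.2e-08). PMAIP1, a BH3-only death gene, was higher by 3.92, and GADD45A, a stress and DNA repair gene, by 2.52. Of 33 PI3K and AKT pathway genes 31 were tested, with 6 higher in U2932 and 14 lower, and a median log2 difference of -0.52. Among those higher were the catalytic subunits PIK3CA and PIK3CG, by 2.72 and 2.88, while none of the more numerous lower genes is named here. The largest adjusted p among these 6 genes was 6.2e-08, that of GADD45A. Of 9 paralogs of the members 6 were tested, and YPEL1, YPEL2 and SESN2 were higher in U2932 by 3.04, 2.61 and 1.88, while FOXO4, CCNG1 and IRS1 were not called. Of 12 proliferation genes, 1 was higher and 5 were lower.

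The second question was how the 10 genes stood after R or OF in each line. In U2932 FOXO3 was furthest below isotype. In TMD8 KLHL24 and CCNG2 were the members whose libraries all lay above isotype after both antibodies. The largest log2 difference after OF there was that of PIK3IP1, at 1.00 (SE 0.52) on few counts. The comparison of each antibody with isotype shares the isotype libraries within a line, so the R and OF values of a gene are not independent of each other.

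**Figure D2:**
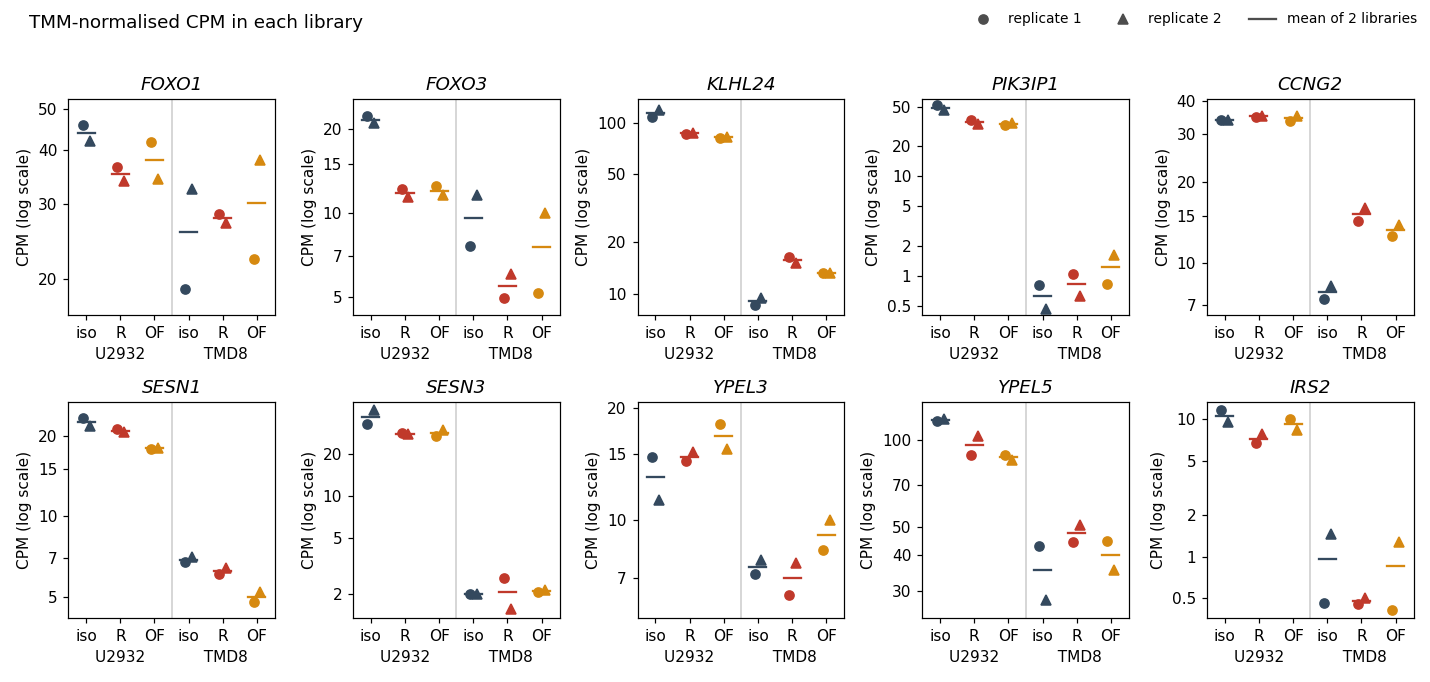
CPM of each of the 10 genes in the 12 libraries, on a log axis, with the 3 antibodies of U2932 at the left and of TMD8 at the right of each panel, circles for replicate 1, triangles for replicate 2 and a line at the mean. KLHL24 lies below isotype after R and OF in U2932 and above it in TMD8, and FOXO3 lies below isotype in all 4 U2932 libraries with an anti-CD20 antibody.

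FOXO3 stood at 12.2 and 11.5 CPM after R and 12.5 and 11.6 CPM after OF in U2932, against 22.4 and 21.0 CPM under isotype. All 4 anti-CD20 libraries lay below both isotype libraries. The log2 difference was -0.88 (SE 0.12) for R and -0.85 (SE 0.12) for OF, or 1.84-fold and 1.80-fold lower. FOXO3 was the 1 member of 10 called lower in each of the 2 comparisons, where 5.02% of all genes were called lower after R and 5.21% after OF. In TMD8 FOXO3 stood at 4.94 and 6.02 CPM after R, 5.14 and 9.98 CPM after OF and 7.65 and 11.6 CPM under isotype. Both R libraries lay below both isotype libraries, and OF replicate 2 lay between the isotype libraries. The log2 differences were -0.81 (SE 0.36) for R and -0.34 (SE 0.35) for OF.

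FOXO1 stood at 36.5 and 33.8 CPM after R, 41.8 and 34.3 CPM after OF and 45.8 and 42.1 CPM under isotype in U2932. The log2 differences were -0.32 (SE 0.11) and -0.20 (SE 0.11), and OF replicate 1 reached to just below the lower isotype library. In TMD8 FOXO1 stood at 28.4 and 27.01 CPM after R, 22.2 and 37.9 CPM after OF and 18.9 and 32.5 CPM under isotype. The groups overlapped, and the log2 differences of 0.12 and 0.23 had an SE of 0.32 each.

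KLHL24 stood at 86.7 and 87.8 CPM after R and 81.5 and 83.2 CPM after OF in U2932, below 107.6 and 119.7 CPM under isotype. In TMD8 it stood at 16.4 and 15.2 CPM after R and 13.3 and 13.3 CPM after OF, above 8.62 and 9.51 CPM under isotype. In both lines the anti-CD20 libraries did not overlap the isotype libraries, and they lay on opposite sides of them. Such a pattern, below isotype in U2932 and above it in TMD8 without overlap, was shown by KLHL24 and YPEL5 after R, against 3.96% of all genes, and by KLHL24, PIK3IP1 and SESN3 after OF, against 2.22% of all genes. The log2 differences were -0.38 (SE 0.09) after R and -0.46 (SE 0.09) after OF in U2932, and 0.81 (SE 0.17) and 0.56 (SE 0.17) in TMD8. These are 1.30-fold and 1.37-fold lower levels in U2932 and 1.75-fold and 1.47-fold higher levels in TMD8. The response in TMD8 minus that in U2932 was 1.18 (SE 0.17) for R and 1.01 (SE 0.17) for OF on the log2 scale. After R or OF, KLHL24 in TMD8 was still below its level in any U2932 library.

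CCNG2 differed little between antibodies in U2932, at 34.9 and 35.0 CPM after R, 33.6 and 35.2 CPM after OF and 34.0 and 33.9 CPM under isotype. The log2 differences were 0.04 and 0.02 with an SE of 0.10 each. In TMD8 it stood at 14.4 and 16.0 CPM after R, 12.6 and 13.8 CPM after OF and 7.36 and 8.20 CPM under isotype. All 4 anti-CD20 libraries lay above both isotype libraries, with log2 differences of 0.97 (SE 0.18) and 0.77 (SE 0.18), or 1.96-fold and 1.70-fold. The response in TMD8 minus that in U2932 was 0.92 (SE 0.18) for R and 0.74 (SE 0.18) for OF. By the call rule the members higher in this contrast were KLHL24 and CCNG2 for R, against 0.179% of all genes, and KLHL24 for OF, against 0.0494% of all genes. With the culture as a block YPEL5 was also called for R, at 0.76 (adjusted p 0.082 against 0.33 without the block), where 2.32% of all genes were called higher, and CCNG2 for OF, at 0.74 (0.052 against 0.21), where 1.11% were. The choice of members used these contrasts, so nothing is read from these shares.

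**Figure D3:**
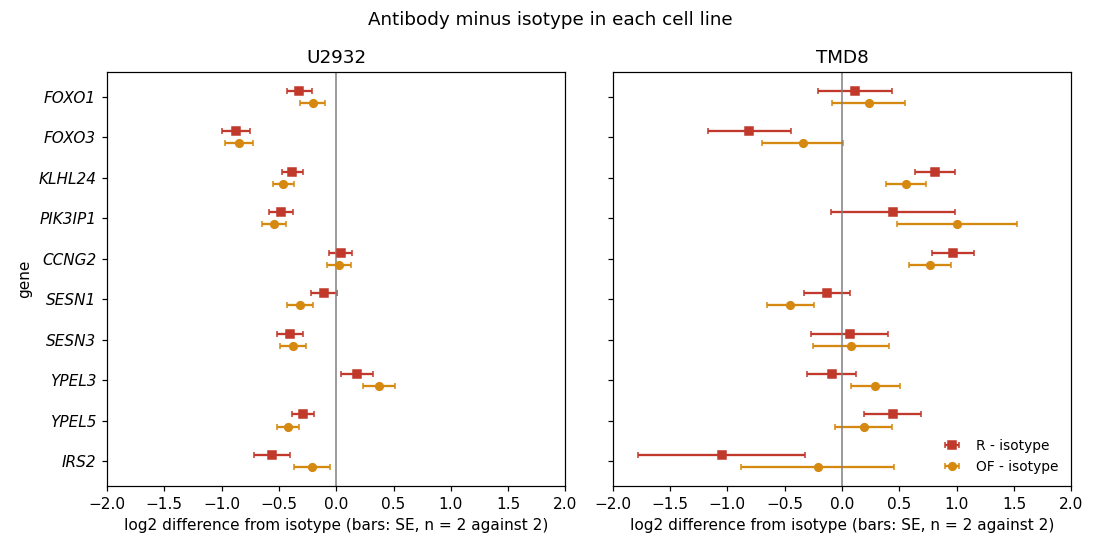
Log2 difference of R (squares) and OF (circles) from isotype for the 10 genes in U2932 (left) and TMD8 (right), with bars for 1 SE (n = 2 libraries against 2). In U2932 8 of the 10 genes lie below 0 after each antibody, and in TMD8 KLHL24 and CCNG2 lie above 0 by 0.56 to 0.97.

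Among the genes that act on the PI3K pathway, PIK3IP1 stood at 36.3 and 33.4 CPM after R and 32.7 and 34.0 CPM after OF in U2932, against 51.6 and 45.8 CPM under isotype. The log2 differences were -0.48 (SE 0.10) and -0.54 (SE 0.11), and the groups did not overlap. In TMD8 PIK3IP1 rested on 10 to 25 counts per library, and its log2 differences of 0.45 and 1.00 had an SE of 0.54 and 0.52. IRS2 stood at 6.67 and 7.78 CPM after R, 9.97 and 8.38 CPM after OF and 11.7 and 9.63 CPM under isotype in U2932. Both R libraries lay below isotype, with a log2 difference of -0.56 (SE 0.16), while OF overlapped isotype at -0.21 (SE 0.15). In TMD8 IRS2 had 6 to 8 counts in 4 libraries, 20 in OF replicate 2 and 41 in isotype replicate 2. It passed the filter on low counts there only through those 2 libraries.

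Of the sestrins and the YPEL genes, SESN1, SESN3 and YPEL5 lay below isotype after both antibodies in U2932. SESN3 stood at 28.2 and 27.7 CPM after R, 26.9 and 29.8 CPM after OF and 33.0 and 41.1 CPM under isotype in U2932, with log2 differences of -0.41 (SE 0.11) and -0.38 (SE 0.11). In TMD8 SESN3 lay between 1.55 and 2.60 CPM in all 6 libraries. SESN1 was lower after OF than under isotype in both lines, at 17.8 and 18.0 against 23.3 and 21.6 CPM in U2932 and at 4.80 and 5.22 against 6.73 and 7.03 CPM in TMD8. After R it lay less far below both isotype libraries, at 21.1 and 20.6 CPM in U2932 and 6.11 and 6.39 CPM in TMD8. The log2 differences after OF were -0.32 (SE 0.11) and -0.45 (SE 0.20), and those after R were -0.10 (SE 0.11) and -0.13 (SE 0.20). YPEL5 stood at 89.0 and 103.3 CPM after R and 89.2 and 85.7 CPM after OF in U2932, below 116.6 and 118.5 CPM under isotype, with log2 differences of -0.29 (SE 0.09) and -0.42 (SE 0.09). In TMD8 YPEL5 lay between 27.7 and 50.9 CPM and its isotype libraries differed most, at 42.9 and 27.7 CPM. YPEL3 was the one member whose OF libraries both lay above both isotype libraries in U2932, at 18.0 and 15.5 against 14.7 and 11.3 CPM, with a log2 difference of 0.37 (SE 0.14).

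In U2932 the median log2 difference of the 10 genes from isotype was -0.35 after R and -0.35 after OF, and that of all genes was -0.02 and 0.01. The choice of members used these comparisons. In bulk RNA a lower level per cell and fewer cells that hold the transcript cannot be told apart.

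In TMD8 0 members were called against isotype after either antibody, where 0.647% of all genes were called after R and 0.815% after OF. In these 2 edgeR comparisons 2265 and 2009 of 14227 genes had an unadjusted p under 0.05, and DESeq2 called 2 members higher after R (KLHL24 and CCNG2), where it called 2.73% of all genes higher, and 1 after OF (CCNG2), where it called 2.4% higher. Libraries with the same replicate number were taken to come from the same culture, which the sample titles do not state. A fit with the culture so defined as a block lowered the median SE of a log2 difference in TMD8 from 0.25 to 0.17. Replicate deviations in TMD8 correlated across genes at 0.685 for OF and isotype. They correlated at 0.221 for R and OF and 0.226 for R and isotype, so the pairing of R was weak. With the block KLHL24 and CCNG2 were called higher after R at log2 differences of 0.81 and 0.97 and FOXO3 lower at -0.78, where 5.04% of all genes were called higher and 5.96% lower. After OF CCNG2 was called higher at 0.77, where 5.17% of all genes were called higher, and KLHL24 at 0.55 was under the fold limit. Without OF replicate 2 and isotype replicate 2 of TMD8, KLHL24 and CCNG2 were called higher after both antibodies, where 7.16% of all genes were called higher after R and 6.74% after OF. In that fit 9 members were tested, since IRS2 did not pass the filter on low counts.

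FOXO1, FOXO3 and IRS2 also differed between the 2 replicates of TMD8. Replicate 2 was above replicate 1 in log2 CPM by 0.77 after OF and 0.78 under isotype for FOXO1, by 0.94 and 0.59 for FOXO3 and by 1.43 and 1.47 for IRS2. After R the same differences were -0.07, 0.28 and 0.10. The 2 libraries in which these 3 genes were high are those with the low shares of ribosomal protein and mitochondrial counts given above, and the part of that in these values was not tested. KLHL24, CCNG2 and SESN1 differed between replicates of TMD8 by at most 0.15 on the same scale.

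**Figure D4:**
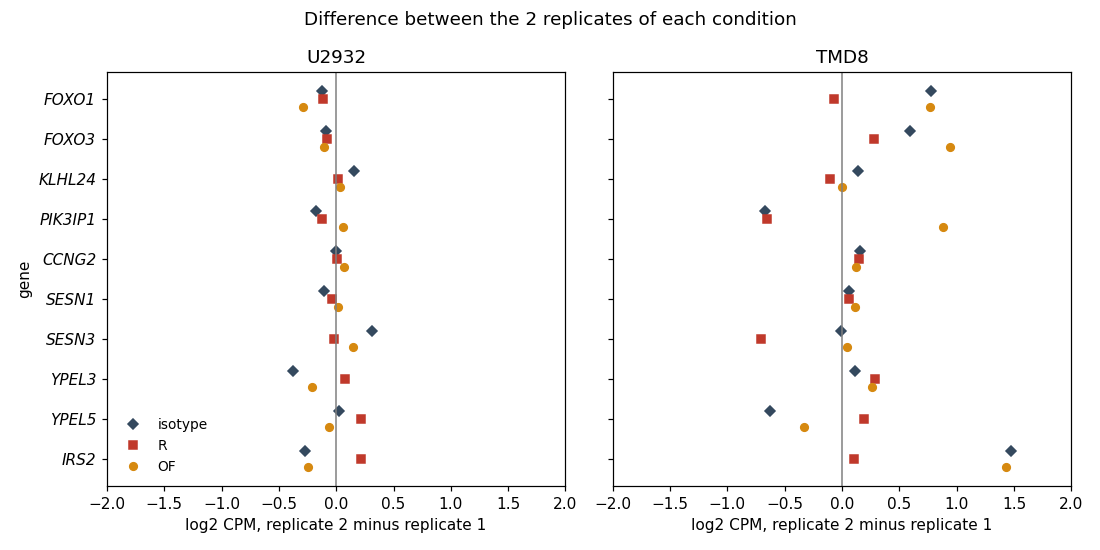
Difference in log2 CPM between replicate 2 and replicate 1 of each condition for the 10 genes, in U2932 (left) and TMD8 (right), with diamonds for isotype, squares for R and circles for OF. In TMD8 the isotype and OF points of FOXO1, FOXO3 and IRS2 lie at 0.59 to 1.47, and the R points of these genes at -0.07 to 0.28.

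The third question was whether R and OF differed in their effect on these genes, which the choice of members did not use. By edgeR's quasi-likelihood test 0 of the 10 differed in U2932, where 0.00683% of all genes (1 of 14635) were called at an adjusted p under 0.30, the limit used for this comparison. In TMD8 0 of the 10 differed, and 0% of all genes that passed the filter on low counts were called. At an unadjusted p under 0.05 there were 747 genes in U2932, of which IRS2 was the 1 member, and 582 genes in TMD8 with 0 members. DESeq2 also called 0 of the 10 in each line. The contrast of this difference between the lines called 0 of the 10 and 0% of all genes, with 368 genes at an unadjusted p under 0.05. The absence of calls among all genes in TMD8 depended on the setting. Without the filter 71 of 26975 genes were called there, 69 of them lower after R, with 0 of the 10. The direction of the calls also depended on the setting. Without TMD8 OF replicate 2 and isotype replicate 2, most of the genes called were higher after R. In that fit FOXO1 and FOXO3 differed by 0.32 and 0.09, against -0.12 and -0.46 with those 2 libraries. KLHL24 stayed at 0.25. That fit keeps 1 OF library of TMD8, so its calls are not counted here. The paper reports a small set of genes that differed between R and OF in TMD8, most of them higher after OF.

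The intervals give the range of differences between R and OF that fits each gene's libraries. In U2932 IRS2 was lower after R than after OF by a log2 difference of -0.35 (95% interval -0.69 to -0.01, adjusted p 0.91). SESN1 was higher after R, by 0.21 in U2932 (-0.03 to 0.45, adjusted p 0.91) and 0.32 in TMD8 (-0.17 to 0.81, adjusted p 0.73). YPEL3 was lower after R, by -0.19 in U2932 (-0.47 to 0.10, adjusted p 0.91) and -0.38 in TMD8 (-0.90 to 0.13, adjusted p 0.73). KLHL24 differed by 0.08 in U2932 (-0.11 to 0.27, adjusted p 0.92) and by 0.25 in TMD8 (-0.16 to 0.66, adjusted p 0.73). The R and OF libraries of 4 of the 10 genes did not overlap in U2932 (KLHL24 and SESN1 higher after R, YPEL3 and IRS2 lower), where this held for 40.8% of all genes. In TMD8 it held for 4 of the 10 (KLHL24, CCNG2 and SESN1 higher after R, YPEL3 lower) and for 45.9% of all genes.

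The pathway around the members was followed with lists written from general knowledge. In U2932 5 of 31 tested FOXO target genes outside the members were called against isotype after R, 3 higher (5.19% of all genes were called higher) and 2 lower, and 6 after OF, 4 higher (5.9% of all genes) and 2 lower. TXNIP, a glucose-sensitive inhibitor of thioredoxin, fell by 1.34 after R and by 1.19 after OF on the log2 scale. CDKN1A, the cell-cycle inhibitor p21, rose by 0.79 and 0.73, and SOD2, the mitochondrial superoxide dismutase, by 0.72 and 0.75 (largest adjusted p 2.5e-05, SOD2 after R). The others called were GABARAPL1, an autophagy gene that was higher, MXI1, an antagonist of MYC that was lower, and, after OF, TRIB3, a pseudokinase that binds AKT and was higher. MAP1LC3B, an autophagy gene, stood at 0.54 and 0.58, which was under the fold limit.

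Of 28 tested PI3K and AKT pathway genes in U2932, 3 were called higher after R and 4 after OF, and 0 lower. Of all genes 5.19% were called higher after R and 5.9% after OF, and 5.02% and 5.21% lower. PIK3CB, a catalytic subunit of PI3K, rose by 1.06 and 1.03 on the log2 scale, SGK1, a kinase that like AKT phosphorylates FOXO proteins, by 1.26 and 1.04, and MAPKAP1, a subunit of mTORC2, by 0.67 and 0.70 (largest adjusted p 1.8e-05, SGK1 after OF). AKT2 stood at 0.39 after R, under the fold limit, and rose by 0.62 after OF. In TMD8 SGK1 was the 1 gene of 31 called, higher by 2.13 after R and 1.92 after OF (adjusted p 0.072 and 0.094). SGK1 was thus called higher after both antibodies in both lines. With the replicate block 7 of the 31 were called in TMD8 after R, 5 higher and 2 lower, and 3 after OF, all 3 higher. That block called 5.04% of all genes higher and 5.96% lower after R, and 5.17% higher after OF. SGK1 and PIK3CB were among the pathway genes called higher in both comparisons.

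In TMD8 0 of 31 other FOXO targets were called after R and 1 after OF, KLF6, a growth-restraining zinc-finger factor, at 1.17. Of the proliferation genes 0 of 11 were called in U2932 after R and 1 after OF (MYC, 0.71), and in TMD8 0 of 12 after R and 1 after OF (MYC, 1.19). With the replicate block 5 of the 31 FOXO targets were called in TMD8 after R, 4 higher and 1 lower, and 7 after OF, 5 higher and 2 lower. Of all genes this block called 5.04% higher and 5.96% lower after R. After OF it called 5.17% of all genes higher, and 652 of 14227 lower. The same block called 3 of 12 proliferation genes higher after each antibody, CCNE1, CCND2 and MYC, against the shares of all genes just given. MKI67 stood at -0.13 and -0.08 in U2932 after R and OF and was called in neither comparison. Of the paralogs 0 of 6 were called against isotype in either line, and YPEL2 stood at 1.29 (SE 0.33) after R in TMD8 with an adjusted p of 0.15, and was the 1 paralog called with the replicate block.

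Across the 12 libraries, with each line centred on its own mean, the genes whose log2 CPM followed KLHL24 most closely among 12722 genes were IGF2BP3 (Pearson r 0.972), SNAPC3 (0.970), ITPRID2 (0.960), HIF1A (0.942) and MYO6 (0.940). The 12 points share libraries and conditions, and the correlations are a description. IGF2BP3 lay at 111.6 to 119.0 CPM after R or OF in U2932 against 126.7 and 141.3 CPM under isotype, and at 76.8 to 84.5 CPM in TMD8 against 56.8 and 64.1 CPM. HIF1A, the oxygen-responsive transcription factor, lay at 96.3 to 101.9 CPM after R or OF in U2932 against 109.8 and 120.4 CPM, and at 143.7 to 174.2 CPM in TMD8 against 101.7 and 96.9 CPM. Both genes lay on opposite sides of isotype in the 2 lines, a pattern that their selection by correlation with KLHL24 favours. Among the members themselves, KLHL24 followed CCNG2 most closely (r 0.812), and IRS2 followed FOXO3 (0.810) and FOXO1 (0.801). The 2 TMD8 libraries that stood apart are those in which IRS2, FOXO3 and FOXO1 were high, and without them these values were 0.772, 0.674 and 0.602 over 10 libraries. FOXO3 and KLHL24 had an r of -0.08, and of 0.18 over the 10 libraries.

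Some reads of the members could be assigned to other genes. FOXO1 shares 269 exon bases on the same strand with LINC00598, which had 7 to 88 counts per library, and the pseudogene FOXO3B had 8 to 27 counts in U2932 and 0 to 3 in TMD8. Antisense genes share exon bases with PIK3IP1, SESN1, SESN3, YPEL3 and IRS2, and had at most 39 counts in any library. The members had 206 counts or more in every U2932 library except IRS2, which had at least 119.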

How the data were processed

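RNA of 12 libraries, from 2 cultures of each line with 3 antibodies each, was sequenced with the NEBNext Ultra II kit. Per the submitters' processing notes, Trim Galore 0.6.0, cutadapt, FastQC, STAR 2.7.0e and DESeq2 1.26.0 were used on GRCh38 (hg38). The authors deposited raw read counts per gene. The annotation release and strand setting are not given in the sources used here. Names, positions and GC content came from GENCODE 29, which matched 58611 of 58884 genes.

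Counts were analysed with edgeR 4.0.16 in R 4.3.3 (TMM, filterByExpr with at least 10 counts, quasi-likelihood test, Benjamini-Hochberg adjustment over all genes tested). Antibodies were compared within the 6 libraries of a line, and lines and responses in a fit of all 12. Genes were called at an adjusted p under 0.10 (0.30 for R against OF in U2932) and at least 1.5-fold. All 10 members passed the filter in each of these fits, and 9 of them did in some of the alternatives below. CPM use TMM factors of the 12 libraries, and log2 CPM a prior count of 2. Replicate numbers were taken to mark a shared culture. The study describes cultures that were split and then treated, but the sample titles give only the number. Deviations of replicates correlated across genes at 0.685 for OF and isotype of TMD8 and at -0.05 to 0.23 for the other pairs, and the block is given where it changed a call. DESeq2 1.42.0, other scalings, filters, limits, GC correction and fits without each library were the alternatives. Steps were tested on simulated data. Correlations between members without 2 TMD8 libraries were added after the data were seen. The members and lists were chosen with earlier results of these data known. Named genes are the 10 members, at most the 4 genes of each list with the smallest adjusted p, and the 5 most like KLHL24. FOXO4, CCNG1, IRS1, MKI67, GABARAPL1, MXI1, TRIB3 and KLF6 were named after their values were seen. The values of some genes of the lists are not reported here. Figures used Python 3.11.15 and matplotlib 3.10.9.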

Additional observations from a re-analysis of the deposited data

Results flagged for a closer look

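In 5 pairings of a gene with 1 antibody, both libraries of that antibody lay below both isotype libraries in U2932 and above both in TMD8. The log2 difference of the response, TMD8 minus U2932, was 1.18 after R and 1.01 after OF for KLHL24, 1.57 after OF for PIK3IP1, 0.45 after OF for SESN3 and 0.73 after R for YPEL5. This pattern held for 3.96% of 12722 genes after R and 2.22% after OF. The absence of overlap was not tested, and the response contrast, in which KLHL24 was called after both antibodies, was used to choose these genes and is a description. The TMD8 side of PIK3IP1 after OF rested on 12 and 25 counts against 14 and 13. That of SESN3 rested on 30 and 33 counts against 35 and 56, where the normalised levels of 2.06 and 2.13 CPM lay just above 2.00 and 1.99 CPM. In TMD8 the log2 difference of PIK3IP1 after OF was 0.04 within replicate 1 and 1.60 within replicate 2. That of YPEL5 after R was 0.05 and 0.87. Without the TMD8 libraries OF 2 and isotype 2 these differences from isotype were 0.03 and 0.14, against 1.00 and 0.44 with them.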

How the results depend on the processing

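The number of all genes called also changed with the setting. In U2932 5005 of 14635 genes were called after R and 5334 after OF without the fold limit, against 1494 and 1625 with it. By library size only 1666 and 1626 were called, and with GC correction 1501 and 1504. In TMD8 1093 and 908 of 26975 genes were called without a filter. In one fit of the 12 libraries 1359 and 1170 of 16187 were called in TMD8. The number of the 10 genes called changed with the setting as follows. For R against isotype in U2932, with 1 gene called, 7 were called without the fold limit and 2 by library size only and with GC correction, with or without the replicate block (FOXO3 and IRS2), and 1 to 2 without single libraries (2 without R replicate 2 or isotype replicate 2). For OF in U2932, with 1 called, the counts were 7, 2 and 2 (FOXO3 and PIK3IP1), and 1 to 2 without single libraries (2 without isotype replicate 2). For R against isotype in TMD8, with 0 called, 2 were called by DESeq2, in one fit of the 12 libraries and without the TMD8 libraries OF 2 and isotype 2, and 3 without a filter and with the replicate block, with or without GC correction. For OF in TMD8, with 0 called, 1 was called by DESeq2, without a filter, in the fit of 12 libraries and with the replicate block, and 2 with the block and GC correction and without the 2 libraries. For the response to R, with 2 called, 1 was called at an adjusted p under 0.05, by library size only and with GC correction, 3 with the replicate block (YPEL5 added) and without the 2 libraries (FOXO1 added), and 0 to 3 without single libraries. It was 0 without any single library of U2932 or R library of TMD8. For the response to OF, with 1 called, 0 were called at an adjusted p under 0.05 and by library size only, 2 without a filter, with the replicate block and without the 2 libraries, 3 by DESeq2 and with the block and GC correction, and 0 to 1 without single libraries (1 without either isotype library of TMD8). The 3 comparisons of R with OF called 0 of the 10 under every alternative that was run. The difference between the lines called 9 to 10 without single libraries (9 without U2932 or TMD8 isotype replicate 1, where FOXO1 fell out), 9 with at least 10 counts in every library, where IRS2 was not tested, and 10 otherwise. A fit that leaves out a library keeps 1 library in that condition, and its counts only describe the dependence on the setting. The cause was not tested. The replicate block changed no call other than those given.

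No member difference that was called turned its sign under an alternative. KLHL24 against isotype ranged from -0.48 to -0.29 after R and -0.55 to -0.31 after OF in U2932, and from 0.66 to 0.88 and 0.49 to 0.63 in TMD8 (log2). Values with no firm direction were those of FOXO1, IRS2, SESN3 and YPEL3 after R in TMD8, of FOXO1, FOXO3, IRS2 and YPEL5 after OF in TMD8 and of CCNG2 in U2932, which took both signs. Scaling by library size only put the median log2 difference of all genes at -0.12 for R in U2932, -0.16 for R in TMD8 and 0.11 for the lines. With 2 cultures per condition, and 6 to 41 counts for IRS2 and 10 to 25 for PIK3IP1 in TMD8, the SE of 0.52 to 0.73 of these 2 genes there limits what depth can show.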
